A study of Rattus norvegicus with 6 samples.

Results

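The genes of platelet-derived growth factor (PDGF) signalling examined here are the 4 ligand genes Pdgfa, Pdgfb, Pdgfc and Pdgfd and the 2 receptor genes Pdgfra and Pdgfrb. They were taken by symbol from the deposited gene table, and the 6 genes are 6 of the 37991 genes listed. RNA-seq measured them in the Achilles tendon of male Sprague-Dawley rats, an outbred laboratory strain, that were 8 weeks old at open tenotomy, the surgical transection of the tendon. Rats of the PM group (3 samples) breathed fine particulate matter (PM) of a coal-fired plant in 3 sessions a week over 6 weeks. Rats of the non-PM group (3 samples) had the same operation without exposure. The rats were perfused with saline before harvest, and each sample was a block of the healed tendon. The labels call the tendons repaired, whereas the methods of the study describe closure of the skin only. The labels do not say which animal a sample came from, and the p-values thus reflect only how far these samples spread. Within a group, values are listed in the order of replicates 1 to 3.

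PDGF ligands are secreted dimers of the A, B, C and D chains, and the receptors alpha and beta are tyrosine kinases that pair up when a dimer binds them. The A and C chains act mainly on the alpha receptor, the D chain mainly on the beta receptor, and the B chain on both. PDGF drives division and migration of mesenchymal cells and is released by platelets at wounds, including injured tendon. Pdgfra is a usual marker of fibroblasts, Pdgfrb is strong in pericytes and also present in fibroblasts, and the B chain from endothelium recruits pericytes to vessels.

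Total counts ran from 46357986 to 62298837 per library, and the 6 genes together took 0.0250 to 0.0620% of them. Non-PM replicate 3 stood apart. The 14 markers of tendon and fibroblasts took 0.644% of its counts and 4.16 to 7.85% of the counts of every other library, while the 13 markers of skeletal muscle took 7.50% of its counts and 1.59 to 6.23% elsewhere. Tenomodulin (Tnmd), a marker of tendon cells, stood at 85.6 to 428 CPM, counts scaled to a common library depth. Its lowest value was in non-PM replicate 3, so tendon transcripts were present in every library. Muscle markers took more of the counts than tendon markers in non-PM replicate 3 and also in PM replicate 2 (6.23% against 4.44%). PM replicates 2 and 3 stood apart in genes of fast muscle fibres, with the myosin gene Myh4 at 6343 and 6016 CPM against at most 64.1 CPM elsewhere. Fold changes and mean levels of the PDGF genes are also given without non-PM replicate 3. In tissue pieces, fewer cells of a type and less RNA per cell cannot be told apart.

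The PDGF transcripts differed more between genes than between groups. By FPKM, the fragments per kilobase of transcript scaled to library depth, Pdgfrb was the most abundant at 47.7 ± 14.2 (mean ± SD over 6 libraries). Pdgfa followed at 21.3 ± 1.51, Pdgfb at 17.5 ± 3.04 and Pdgfra at 14.6 ± 6.50. The ligands Pdgfc at 4.71 ± 2.08 and Pdgfd at 4.08 ± 2.07 were lowest. Over the 5 libraries other than non-PM replicate 3 the means stood in the same order, at 52.4 for Pdgfrb, 21.5 for Pdgfa, 18.2 for Pdgfb, 16.7 for Pdgfra, 5.36 for Pdgfc and 4.69 for Pdgfd. Pdgfrb exceeded Pdgfa in 6 of 6 libraries, by 2.15-fold on geometric average (exact sign-flip permutation p = 0.0312, adjusted p = 0.0391 over the 5 neighbouring pairs). The same exact test, whose smallest possible p over 6 libraries is this value, gave the same p for Pdgfa over Pdgfb (1.23-fold), for Pdgfra over Pdgfc (3.06-fold) and for Pdgfc over Pdgfd (1.19-fold), each with the same direction in 6 of 6 libraries. Pdgfb and Pdgfra could not be ordered, since Pdgfb was higher in 4 of 6 libraries (exact permutation p = 0.25). The order was taken from these same libraries, so the test shows only that a direction repeats between libraries. It cannot detect an error of length scaling that all libraries share. By CPM, which is not scaled to length, Pdgfd exceeded Pdgfc in PM replicates 2 and 3 and non-PM replicates 1 and 2. It lay below Pdgfc in PM replicate 1 and non-PM replicate 3.

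**Figure D1:**
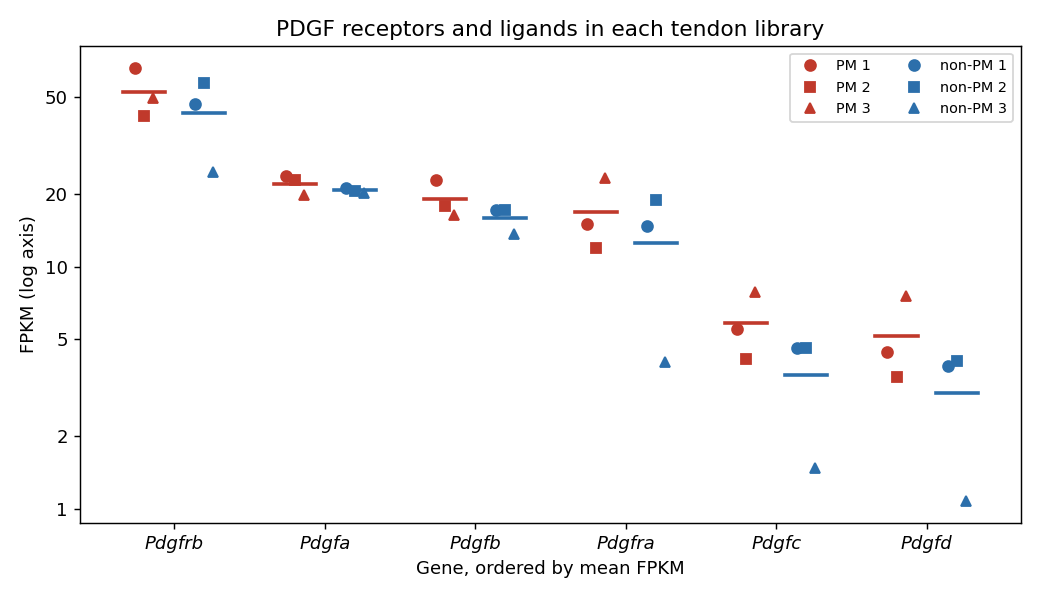
FPKM (log axis) of the 6 PDGF genes in each of the 6 libraries, with a horizontal line at each group mean and marker shape giving the replicate number. Pdgfa lay between 19.7 and 23.6 FPKM in all 6 libraries, whereas Pdgfra, Pdgfc and Pdgfd were lowest in non-PM replicate 3, at 4.03, 1.46 and 1.07 FPKM.

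Most ligand transcript came from the A and B chains. Together Pdgfa and Pdgfb made up 78.8 ± 7.66% of summed ligand FPKM in the PM group and 85.4 ± 6.62% in the non-PM group (SD, n = 3). Pdgfrb made up 75.8 ± 6.90% of summed receptor FPKM in the PM group and 79.1 ± 5.88% in the non-PM group. Summed receptor FPKM ran from 28.6 in non-PM replicate 3 to 81.2 in PM replicate 1, and summed ligand FPKM from 36.3 to 56.4 in the same libraries. Without non-PM replicate 3 the lowest sums were 53.7 for receptors and 46.4 for ligands, and the non-PM means of the remaining 2 libraries were 81.5% for the share of Pdgfa and Pdgfb and 75.8% for that of Pdgfrb.

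The promoters of the alpha receptor and of the A, B and D chains are shown as a description, and no link to the levels was tested. RefSeq gave a window of 250 bases before and 50 bases after the start site for 5 of the 6 genes on the GRCr8 assembly, which is later than the Rnor_6.0 assembly of the files. Only the bases before the annotated span of the gene are printed, 5′ to 3′ on the strand of the gene, with matches to the motifs below in capitals. The stretches are chr12:20759116-20759365 (plus strand) for Pdgfa, chr7:113438344-113438593 (minus strand) for Pdgfb, chr14:33408605-33408766 (minus strand) for Pdgfra and chr8:11773258-11773334 (plus strand) for Pdgfd.
Pdgfa: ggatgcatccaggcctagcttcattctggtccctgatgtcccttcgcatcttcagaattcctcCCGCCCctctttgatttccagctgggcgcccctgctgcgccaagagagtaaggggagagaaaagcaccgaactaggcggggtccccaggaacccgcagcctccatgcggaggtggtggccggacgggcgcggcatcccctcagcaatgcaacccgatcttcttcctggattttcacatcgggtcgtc
Pdgfb: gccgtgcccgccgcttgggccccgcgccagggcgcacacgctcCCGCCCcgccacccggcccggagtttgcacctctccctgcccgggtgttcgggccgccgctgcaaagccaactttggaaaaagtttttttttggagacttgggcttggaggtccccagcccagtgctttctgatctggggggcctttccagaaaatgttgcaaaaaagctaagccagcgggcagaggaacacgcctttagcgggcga
Pdgfra: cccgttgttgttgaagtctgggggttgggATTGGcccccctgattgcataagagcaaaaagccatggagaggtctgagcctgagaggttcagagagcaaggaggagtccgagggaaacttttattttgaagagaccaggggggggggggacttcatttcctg
Pdgfd: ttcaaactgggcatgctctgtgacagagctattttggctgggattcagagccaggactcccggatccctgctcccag
The start site of the Pdgfc window lay 1759 bases inside the annotated gene, so that window is not shown. Of 33469 windows of this length, 33.1% held a GC box (GGGCGG on either strand), 37.5% a CCAAT box (CCAAT), 21.2% the core of the cAMP response element (TGACG) and 14.2% a TATA box (TATAAA). Pdgfa and Pdgfb each held 1 GC box, beginning 187 and 207 bases before the start site, and Pdgfra held 1 CCAAT box, beginning 221 bases before it. These 3 matches lie on the opposite strand, so the capitals spell the reverse complement of the motif. In the Pdgfd window, 2 matches to TGACG began 120 and 60 bases before the start site and 1 GC box began 114 bases before it, all inside the annotated gene span and so not printed. The Pdgfc window held none of these motifs. A match is a description of the letters and no measurement of binding.

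The question put to the groups is whether PM inhalation goes with other levels of PDGF transcripts in healing tendon. None of the 6 genes differed between the groups beyond the spread between samples. In edgeR 0 of the 6 passed the relaxed criterion taken from the study, which asks for an unadjusted p under 0.05 and a change of 1.2-fold or more, and which 2.96% of the 18134 genes tested passed (1.47% higher and 1.49% lower in the PM group). After Benjamini-Hochberg adjustment 0 genes passed over the whole table in edgeR, where 537 had an unadjusted p under 0.05, while DESeq2 called 13 genes after adjustment and 0 of the PDGF genes. The groups overlapped for all 6 genes, whereas 9.68% of the genes tested had groups that did not overlap. All 6 genes passed the filter on low counts.

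The beta receptor Pdgfrb (gene 24629), the receptor of the B and D chains, stood at 378, 261 and 289.5 CPM in the PM libraries and at 286, 309.9 and 186 CPM in the non-PM libraries. PM replicate 1 was highest and non-PM replicate 3 lowest, and the other 4 libraries lay close together in both groups. The group means were 309 ± 60.7 and 261 ± 65.9 CPM (SD, n = 3). Its log2 fold change was 0.25 ± 0.28 (SE, edgeR adjusted p = 0.942), with a 95% interval from -0.43 to 0.93, or a fold of 0.741 to 1.90. Without non-PM replicate 3 it was 0.037, and without PM replicate 1 it was 0.080.

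The alpha receptor Pdgfra (gene 25267), the receptor of the A and C chains, stood at 103, 91.3 and 164 CPM in the PM libraries. In the non-PM libraries it stood at 108, 121 and 37.0 CPM. The lowest value was thus in 1 non-PM library, and both other non-PM libraries exceeded PM replicates 1 and 2. The means were 119 ± 38.9 CPM in the PM group and 88.7 ± 45.3 CPM in the non-PM group (SD, n = 3). The log2 fold change was 0.43 ± 0.47 (SE, edgeR adjusted p = 0.942, 95% interval -0.69 to 1.54), and it was 0.042 without non-PM replicate 3 and 0.13 without PM replicate 3.

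The balance of the receptors did not separate the groups either. The ratio of Pdgfra to Pdgfrb FPKM was 0.227, 0.287 and 0.468 in PM replicates 1 to 3 and 0.313, 0.327 and 0.164 in non-PM replicates 1 to 3, so the highest ratio was in a PM library and the lowest in a non-PM library. The mean log2 ratio was -1.68 ± 0.53 in the PM group and -1.97 ± 0.56 in the non-PM group (SD, n = 3, exact two-sided permutation p = 0.6, where 3 against 3 samples allow no p under 0.1).

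Among the ligands, Pdgfa (gene 25266), which encodes the A chain, stood at 50.3, 53.1 and 41.4 CPM in the PM libraries and 46.2, 41.0 and 56.2 CPM in the non-PM libraries. Its group means were nearly equal, at 48.3 ± 6.12 and 47.8 ± 7.68 CPM (SD, n = 3). The log2 fold change was 0.013 ± 0.18 (SE, edgeR adjusted p = 0.991), and its sign turned with other scaling factors (-0.0093). It was 0.13 without non-PM replicate 3. Non-PM replicate 3 gave the highest Pdgfa level by CPM, which is scaled by trimmed-mean (TMM) factors, and a level within the range of the others by FPKM, so this library's place depends on the scaling.

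Pdgfb (gene 24628), which encodes the B chain, stood at 40.9, 34.9 and 29.8 CPM in the PM libraries and 32.8, 28.8 and 32.6 CPM in the non-PM libraries. PM replicate 1, the library with the highest Pdgfrb, was also highest for Pdgfb. The 11 endothelial markers took 0.196% of counts in that library and 0.0938 to 0.131% in the others, and their part in the Pdgfb and Pdgfrb values was not tested. The means were 35.2 ± 5.55 and 31.4 ± 2.22 CPM (SD, n = 3), and the log2 fold change was 0.16 ± 0.16 (SE, edgeR adjusted p = 0.942, 95% interval -0.22 to 0.55). Without PM replicate 1 it was 0.043, and without non-PM replicate 3 it was 0.18.

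Pdgfc (gene 79429), whose protein is secreted in a latent form and cut by tissue plasminogen activator, stood at 6.49, 5.32 and 9.43 CPM in the PM libraries and 5.76, 5.13 and 2.30 CPM in the non-PM libraries. The groups overlapped. Their means differed mainly through the high value of PM replicate 3 and the low value of non-PM replicate 3. The other 4 libraries lay between 5.13 and 6.49 CPM. The log2 fold change was 0.69 ± 0.40 (SE, edgeR unadjusted p = 0.133, adjusted p = 0.942, 95% interval -0.27 to 1.64). It was 0.36 without non-PM replicate 3 and 0.43 without PM replicate 3.

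Pdgfd (gene 66018), whose protein is latent in the same way and can be cut by urokinase, stood at 6.17, 5.36 and 10.7 CPM in the PM libraries and 5.82, 5.38 and 2.02 CPM in the non-PM libraries. The same libraries were highest and lowest as for Pdgfc. The log2 fold change was 0.75 ± 0.46 (SE, edgeR unadjusted p = 0.154, adjusted p = 0.942, 95% interval -0.36 to 1.86), or 0.39 without non-PM replicate 3 and 0.39 without PM replicate 3. The intervals of Pdgfc and Pdgfd reached a fold of 3.12 and 3.64, so differences of that size were not excluded for these genes.

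**Figure D2:**
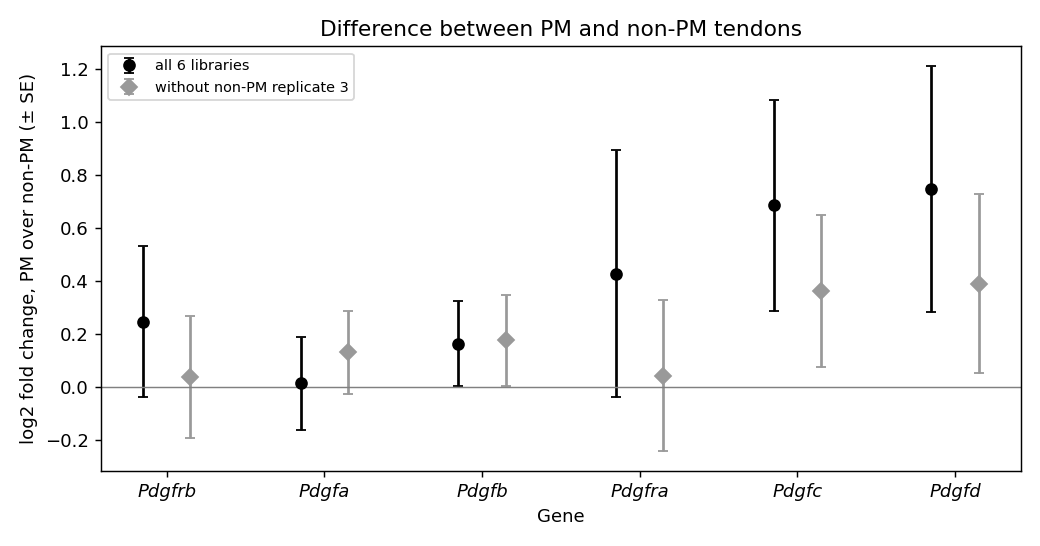
Log2 fold change of PM over non-PM tendons for each PDGF gene (points, bars of 1 SE) with all 6 libraries and without non-PM replicate 3. Pdgfc and Pdgfd had the widest folds, 0.69 and 0.75 with all libraries and 0.36 and 0.39 without that library, and none of the values passed adjustment.

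Pdgfra, Pdgfc and Pdgfd varied together across the libraries while Pdgfa and Pdgfb varied less. Between the highest and the lowest library FPKM differed 5.77-fold for Pdgfra, 5.39-fold for Pdgfc and 6.9995-fold for Pdgfd, against 2.69-fold for Pdgfrb, 1.69-fold for Pdgfb and 1.196-fold for Pdgfa. The ratio of Pdgfc to Pdgfra stayed within 0.246 and 0.369 in all 6 libraries, and that of Pdgfd to Pdgfra within 0.217 and 0.323. The ratio of Pdgfc to Pdgfd ran from 1.05 to 1.36. In non-PM replicate 3, where Pdgfra was lowest, the ratios to Pdgfra were 0.363 for Pdgfc and 0.267 for Pdgfd, both inside the range of the other libraries, while the ratio of Pdgfc to Pdgfd was highest there. Without that library the spread of FPKM was 1.94-fold for Pdgfra, 1.90-fold for Pdgfc and 2.15-fold for Pdgfd, so the wide range rested on it. Pearson's r of log2 CPM with Pdgfra was 0.956 for Pdgfc and 0.970 for Pdgfd over 6 libraries. Without that library it was lower, at 0.790 and 0.866. For Pdgfa it was -0.830 over 6 libraries and -0.852 without that library, so by CPM Pdgfa ran against Pdgfra. By FPKM Pdgfa in that library, at 20.2, lay within the range of the others, so the value over 6 libraries depends on the scaling.

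The counts behind the low values were small but sufficient to tell them from the others by counting error. Pdgfd had 91 counts in non-PM replicate 3 (exact 95% Poisson interval 73.3 to 112) and 284 in non-PM replicate 2 (252 to 319). Pdgfc had 104 counts (85.0 to 126) and 271 (240 to 305.3) in the same libraries. These intervals cover counting error only.

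Of the 6 PDGF genes, Pdgfra, Pdgfc and Pdgfd lay at least 1 log2 unit below every other library in non-PM replicate 3, a place that 5.99% of all genes tested shared. This was seen in the values and not asked beforehand, and it has no test. The tendon and fibroblast markers together took 0.644% of counts in the same library, a sum made up mostly of the collagen genes Col1a1 and Col1a2, and 8 of the 14 were lowest there while 6 were not (Scx, Mkx, Thbs4, Kera, Dpt and Pi16). All 10 macrophage markers were lowest there as well, at 0.0278% of counts against 0.0555 to 0.125% in the others, whereas 36.2% of all genes tested were lowest in that library. The part of these cells in the values was not tested. PM replicate 3, highest for Pdgfra, Pdgfc and Pdgfd, also had the highest share of tendon and fibroblast markers, at 7.85%. Col1a1 and Col1a2 again made up most of that sum. Of the 14, Mkx, Col1a1, Col1a2 and Dcn were highest there and the others were not. Scx was lowest there, at 20.3 CPM.

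**Figure D3:**
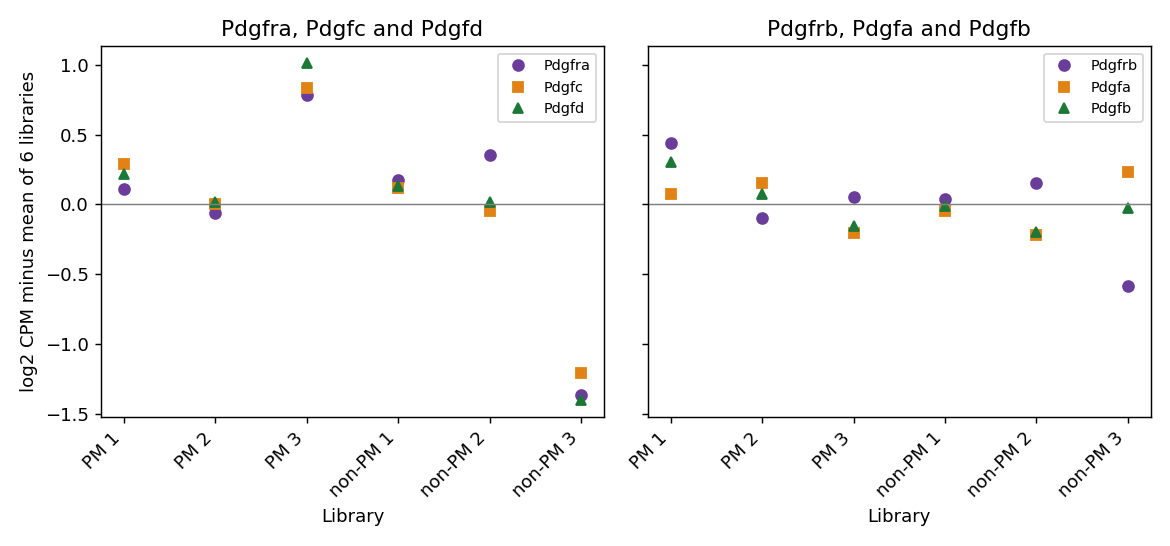
Log2 CPM of each PDGF gene minus its own mean over the 6 libraries. In the panel of Pdgfra, Pdgfc and Pdgfd the points of the 3 genes lie close together, with Pdgfra apart from both ligands in non-PM replicate 2, and are highest in PM replicate 3 and lowest in non-PM replicate 3, while in the other panel only Pdgfrb is low in non-PM replicate 3, at 186 CPM against 261 CPM or more elsewhere.

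The summed markers of the cells that are known to make or receive PDGF overlapped between the groups. Markers of smooth muscle and pericytes, which carry the beta receptor, took 0.309 to 0.386% of counts in PM and 0.276 to 0.510% in non-PM libraries. This list includes desmin (Des), a gene that skeletal muscle also expresses, which stood at 4799 CPM in non-PM replicate 3 and at most 2190 CPM elsewhere. No other gene of the list exceeded 358 CPM in that library, so its 0.510% was mostly Des. The log2 fold change of Des was -0.82, while 10 of the 13 genes lay above 0. Endothelial markers took 0.119 to 0.196% in PM and 0.0938 to 0.131% in non-PM libraries, and the 10 macrophage markers 0.0555 to 0.0930% and 0.0278 to 0.125%. Single markers met the relaxed criterion as higher in the PM group, 3 of the 13 of smooth muscle and pericytes (list median 0.38), 2 of the 11 of endothelium (0.29), 3 of the 13 of skeletal muscle (1.09) and 1 of the 6 of adipocytes (1.07), beside 1.47% of all genes. By the same criterion 1 keratinocyte marker, Tp63, was lower in the PM group, beside 1.49% of all genes. Its log2 fold change was -1.43 (edgeR unadjusted p = 0.00880, adjusted p = 0.942). Of the 13 skeletal muscle markers, 10 lay above 0. The 3 under it were Acta1 (-0.70), Myh7 (-1.05) and Neb (-0.65). The part of any of these cell types in the PDGF values was not tested. The 7 markers of platelets and megakaryocytes together took few counts, at 0.00130 to 0.00256% in PM and 0.000740 to 0.00245% in non-PM libraries. Ppbp, Gp1ba and Tubb1, which define platelets, had too few counts to be tested, and the platelet chemokine gene Pf4 stood at 12.7 ± 5.88 CPM in the PM libraries and 10.4 ± 4.38 CPM in non-PM tendons (SD, n = 3). The platelet integrin gene Itga2b lay between 2.90 and 6.08 CPM, and the other 5 genes stayed under 1 CPM. Adipocyte markers took 0.0525 to 0.104% and 0.0330 to 0.0638%, and Schwann cell markers 0.0683 to 0.106% and 0.0613 to 0.133%. Keratinocyte markers took 0.0405% of counts in non-PM replicate 2, with Krt5 at 148 CPM, and at most 0.00145% elsewhere.

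**Figure D4:**
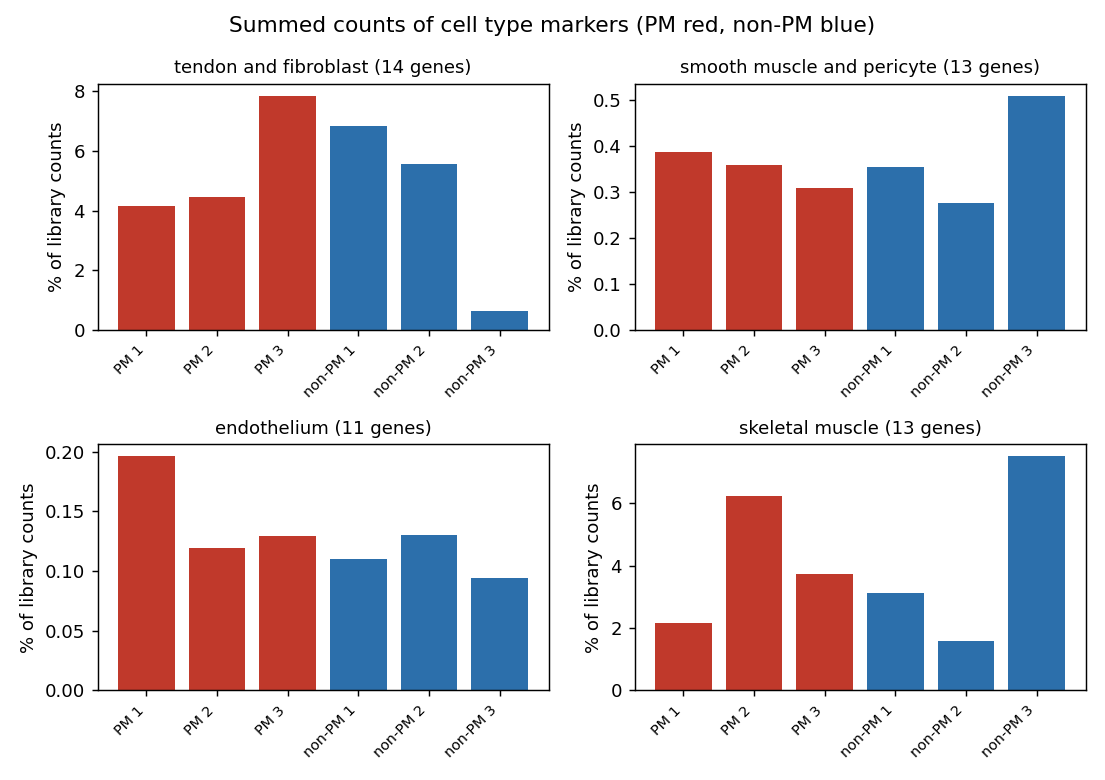
Summed counts of 4 marker lists as a percentage of the counts of each library. Non-PM replicate 3 has the lowest bar for tendon and fibroblast markers (0.644%) and the highest for skeletal muscle (7.50%), and PM replicate 1 has the highest for endothelium (0.196%).

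The genes whose CPM followed each PDGF gene most closely over the 6 libraries were found among 9862 genes with a mean of at least 10 CPM, by Pearson's r of log2 CPM as a description. The genes most like Pdgfra were Dnajc1, Pign and Notch2, a Notch receptor, with r from 0.996 to 0.997, and 310 genes reached 0.95. Notch2 stood at 104, 86.8 and 159 CPM in the PM libraries and 112, 128 and 40.6 CPM in the non-PM libraries, close to the level of Pdgfra in each. Pdgfc was most like Lyst, Parp10 and the endocytic adaptor Dab2 (0.995 to 0.997), and Pdgfd most like Tbc1d8b, Ankrd44 and Lyst (0.998 to 0.999), so that Lyst stood in both lists. Pdgfrb was most like the IGF-binding protein gene Igfbp4 (0.997), then Bud13 and Tmem167a. Pdgfb was most like Wars, the tryptophanyl-tRNA synthetase (0.992), Zfand2a and Sigirr, and only 7 genes reached 0.95. Pdgfa was most like Atxn7l2 (0.986), Azi2 and the mitochondrial ribosomal RNA mt-Rnr1. With 6 libraries of which 1 stands apart, such values are common and say nothing of shared control.

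The genes of proteins that prepare, bind and retain PDGF formed a list of 12. Of these, 1 was higher by the relaxed criterion, 0 were lower and 11 did not pass, beside 1.47% higher and 1.49% lower over all genes. The median log2 fold change of the list was 0.28, against -0.0040 over all 18134 genes tested, and 9 of its 12 genes lay above 0, against 49.5% of all genes. The list median was 0.11 without non-PM replicate 3 and 0.14 without PM replicate 3. The gene that passed was Nrp1, encoding neuropilin, a co-receptor that binds PDGF and vascular growth factors. It stood at 114, 103 and 147 CPM in the PM libraries and 90.5, 84.0 and 76.9 CPM in the non-PM libraries. The groups did not overlap, as for 9.68% of all genes tested, and Nrp1 was named for its p, so this adds no support. Its log2 fold change was 0.54 ± 0.20 (SE, edgeR unadjusted p = 0.0304, adjusted p = 0.942). Leaving out PM replicate 1 or 3 or any non-PM replicate ended the call, with log2 fold changes of 0.38 (without PM replicate 3) to 0.59. The activating proteases of the latent ligands did not pass, with Plat, tissue plasminogen activator, at 0.17 ± 0.29 and Plau, urokinase, at 0.44 ± 0.38.

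Of 22 adaptors and effectors that bind or act beneath the activated receptors, 19 lay above 0 on the log2 scale and 3 lay under it (list median 0.12), against 49.5% of all genes above 0. Without non-PM replicate 2 the median was 0.22, and limma on FPKM gave 0.23 and 0.24. The median of all genes tested rose too in these settings, to 0.031, 0.055 and 0.097. By the relaxed criterion 1 was higher, 0 were lower and 21 did not pass, beside 1.47% higher and 1.49% lower over all genes. The gene that passed was Yes1, a kinase of the Src family, at 36.4, 22.5 and 33.8 CPM in the PM libraries and 22.0, 23.0 and 20.5 CPM in the non-PM libraries. PM replicate 2 lay among the non-PM libraries. Its log2 fold change was 0.50 ± 0.20 (SE, edgeR unadjusted p = 0.0465, adjusted p = 0.942), and the call ended without any 1 library other than PM replicate 2 (0.37 without PM replicate 1 to 0.54 without non-PM replicate 2) and in DESeq2 (unadjusted p = 0.0511) and limma on FPKM (0.105 and 0.0999).

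Of 11 genes that switch the receptors off, by ubiquitin ligation, dephosphorylation or feedback, 0 passed the relaxed criterion, beside 2.96% of all genes. The median was 0.15 (0.097 without PM replicate 3), and 10 of 11 lay above 0, against 49.5% of all genes. The smallest p belonged to Spry4, a feedback inhibitor of receptor tyrosine kinases, at 26.0, 40.0 and 26.4 CPM in the PM libraries and 22.2, 15.0 and 24.8 CPM in the non-PM libraries. The groups did not overlap, as for 9.68% of all genes tested. The log2 fold change was 0.57 ± 0.26 (SE, edgeR unadjusted p = 0.0667, adjusted p = 0.942). Without non-PM replicate 3 the value was 0.72 and met the relaxed criterion (unadjusted p = 0.0432), as it did in limma on FPKM (unadjusted p = 0.0285 and 0.0243). It was 0.34 without PM replicate 2 (unadjusted p = 0.231) and 0.39 without non-PM replicate 2 (unadjusted p = 0.161). The phosphatase gene Ptprj followed at 0.46 ± 0.28, or 0.20 when PM replicate 3 was left out and 0.27 for non-PM replicate 3.

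Of 12 genes that PDGF induces in cultured fibroblasts, 6 lay above 0 and 6 under it, against 49.5% of all genes above 0. Without non-PM replicate 3, 9 lay above 0 and 3 under it, and without PM replicate 3 the numbers were 8 and 4. The list median was 0.11. Leaving out 1 library moved this median to 0.031 (non-PM replicate 1), 0.051 (PM replicate 1), 0.061 (PM replicate 3) or 0.23 (non-PM replicate 3). By the relaxed criterion 1 was higher, 0 were lower and 11 did not pass, beside 1.47% higher and 1.49% lower over all genes. The gene that passed was Has2, the hyaluronan synthase, at 19.2, 11.5 and 17.6 CPM in the PM libraries and 10.8, 9.29 and 4.32 CPM in the non-PM libraries. Its groups did not overlap, as for 9.68% of all genes tested. The log2 fold change was 0.98 ± 0.38 (SE, edgeR unadjusted p = 0.0371, adjusted p = 0.942). It was 0.66 without non-PM replicate 3, and the call ended without PM replicate 1 (0.84) or PM replicate 3 (0.92), and in limma on FPKM (unadjusted p = 0.0516 and 0.0570 with the larger and the smaller pseudocount). The immediate-early genes Fos, at -0.32 ± 0.36, and Egr1, at 0.38 ± 0.29, did not pass.

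The other receptors of the same structural class, with their ligands, formed a list of 7 genes. All 7 lay above 0, with a median of 0.32 (0.071 when non-PM replicate 3 was left out, 0.19 for PM replicate 3, 0.51 for PM replicate 1 and 0.60 for non-PM replicate 1), and by the relaxed criterion 1 was higher, 0 were lower and 6 did not pass. Kitlg, which encodes stem cell factor, the ligand of the receptor Kit, stood at 94.0, 74.8 and 83.9 CPM in the PM libraries and 56.7, 47.1 and 63.0 CPM in the non-PM libraries. The groups did not overlap, as for 9.68% of all genes tested. The log2 fold change was 0.60 ± 0.17 (SE, edgeR unadjusted p = 0.0118, adjusted p = 0.942). It met the relaxed criterion under each of the 12 alternatives tried, with log2 fold changes of 0.50 to 0.69. Kit itself, at 0.23 ± 0.22, did not pass, and Csf1r, the receptor for macrophage colony-stimulating factor, was at 0.32 ± 0.67.

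**Figure D5:**
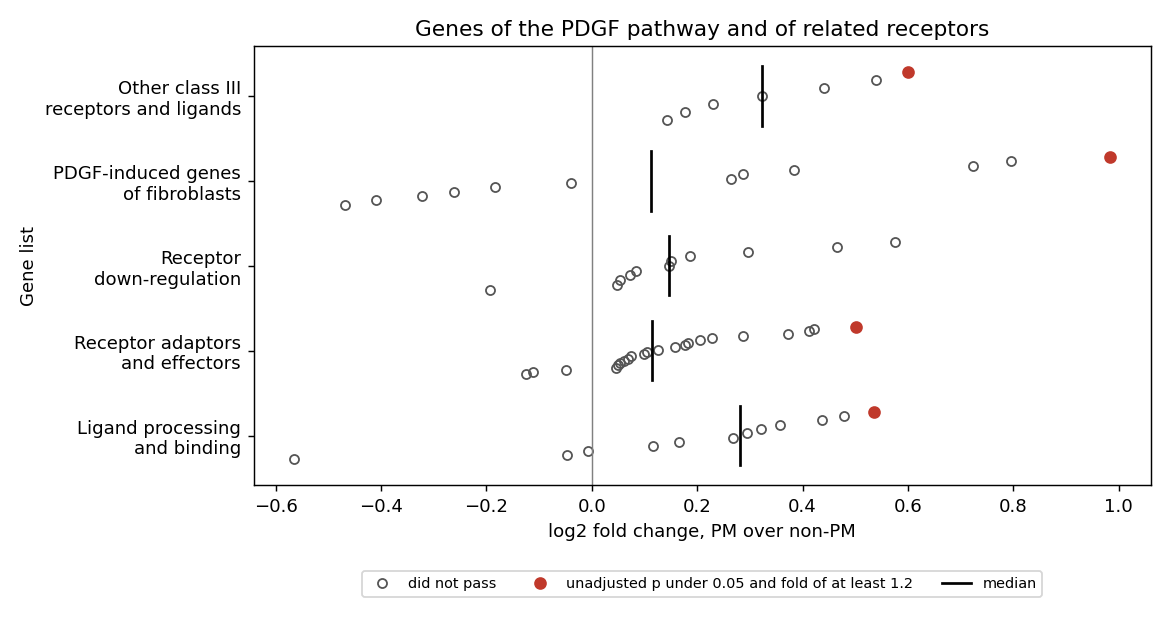
Log2 fold change of PM over non-PM tendons for each gene of 5 lists around the PDGF pathway, with the median of each list as a vertical line and filled points for genes past the relaxed criterion. The filled points are Nrp1 (0.54), Yes1 (0.50), Has2 (0.98) and Kitlg (0.60), and none of them passed adjustment over all genes.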

How the data were processed

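The libraries were stranded, poly(A)-selected and read from both ends. Tools listed in the submitters' processing notes are HISAT2 2.1.0, Trimmomatic 0.38 and FastQC 0.11.7, the assembly is Rnor_6.0, and StringTie is named in the study. The deposited table gives whole-number read counts per gene and sample, and in the same deposited table FPKM as computed by the authors. The counting settings, strand included, are not given in the sources used here. The 6 columns of each kind were matched to sample titles by group and number. No library pair was as alike as counting error alone would make it (lowest chi-square per degree of freedom 176).

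The count test was run in edgeR 4.0.16 under R 4.3.3 (filterByExpr on group, TMM factors, two-sided quasi-likelihood test, Benjamini-Hochberg adjustment over all 18134 genes tested). SEs were derived from the fold change and its F statistic. CPM are counts over TMM-scaled totals, with factors from 0.791 (non-PM replicate 3) to 1.16. Neighbouring genes were compared by an exact sign-flip test on log2 FPKM ratios. Alternatives were DESeq2 1.42.0, RLE factors, no filter, a replicate block, limma 3.58.1 on log2(FPKM + 1) or log2(FPKM + 0.1), and leaving out each library. Scripts were tested on simulated data. The genes and lists were chosen with earlier results of these data known, and alternatives for the lists were added after the data were seen. Named list genes were those past the relaxed criterion, or the 2 with the smallest p where none passed. From each marker list the 2 most abundant genes were eligible to be named, and any other gene named was chosen after its values were seen. List symbols were matched to the table, 1 of them (Tp63) through a synonym. Promoters are from RefSeq, matched by gene ID.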

Additional observations from a re-analysis of the deposited data

How the results depend on the processing

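No PDGF gene passed adjustment or the relaxed criterion under any of the 12 alternatives. Pdgfb, Pdgfc, Pdgfd, Pdgfra and Pdgfrb kept a log2 fold change above 0 in each of them. That of Pdgfa turned to -0.0092 in DESeq2 and to -0.0093 with RLE factors. Leaving out 1 library gave -0.083 to 0.13 for Pdgfa, 0.043 to 0.27 for Pdgfb, 0.36 to 0.92 for Pdgfc, 0.39 to 0.996 for Pdgfd, 0.042 to 0.72 for Pdgfra and 0.037 to 0.39 for Pdgfrb. The difference in the log2 ratio of Pdgfra to Pdgfrb ran from -0.034 to 0.52 on leaving out 1 library, and turned in sign when either replicate 3 was left out. With 5 libraries the sign-flip test cannot give a p under 0.0625, so no order of neighbours can pass, and the mean log2 FPKM ratios stayed at 1.02 to 1.26 for Pdgfrb over Pdgfa, 0.25 to 0.35 for Pdgfa over Pdgfb, 1.53 to 1.65 for Pdgfra over Pdgfc and 0.21 to 0.29 for Pdgfc over Pdgfd. Over all genes, edgeR called 0 after adjustment and DESeq2 13. The relaxed criterion called 537 genes in edgeR, 821 in DESeq2, 293 in limma on log2(FPKM + 1), 305 on log2(FPKM + 0.1), 206 when PM replicate 3 was left out, 1209 when non-PM replicate 2 was left out and 826 when non-PM replicate 3 was. The replicate numbers are only names, since the deviations of same-numbered samples correlated at -0.17, -0.39 and -0.31. With the replicate block 155 genes met the relaxed criterion and 0 passed adjustment, and the log2 fold changes of the PDGF genes were 0.018 (Pdgfa), 0.15 (Pdgfb), 0.73 (Pdgfc), 0.78 (Pdgfd), 0.52 (Pdgfra) and 0.26 (Pdgfrb). Of the pathway genes, Kitlg met the relaxed criterion with the block and Nrp1 (0.52, unadjusted p = 0.106), Yes1 (0.47, 0.111) and Has2 (1.04, 0.0516) did not. The lowest count among the PDGF genes was 91.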
